A study of Nannospalax ehrenbergi and Mus musculus with 14 samples.

Results

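miR-675 and miR-483 are the microRNAs of the imprinted H19 and Igf2 genes. Both arms of each, 4 mature names of the 1326 in the deposited tables, were followed through all 14 small RNA libraries of the study. The blind mole rat *Spalax* and the C57BL/6 mouse had received the carcinogen 3-methylcholanthrene (3MCA) as a single subcutaneous injection in the neck, 1 mg in 500 μl for *Spalax* and 200 μg in 200 μl for mice. Every animal used here was injected and bore a growth, so the uninjected side (UIS) is neck muscle of a tumor-bearing animal and not of an untreated one. The injected side (IS) is the growth itself. Animals are named here by their number, after Sp for *Spalax* and M for mouse. Granulomas were taken at 14 months (Sp600) and 16 months (Sp976), *Spalax* fibrosarcomas at 18 months (Sp2240) and 30 months (Sp2230), and mouse fibrosarcomas at 11 weeks (M512), 12 weeks (M1023) and 14 weeks (M1019). The mice were 3 to 4 months old, and the *Spalax* were field-caught animals of about 2 years or of 10 years and over, with no age given for the single animals. The *Spalax* are outbred, sexes are mixed in the fibrosarcoma group, and each *Spalax* group holds only 2 animals per side. The third mouse UIS library is called M1018 in the table and M1019 in its label, and it was therefore kept in its group but paired with no tumor.

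H19 and Igf2 are neighboring imprinted genes that share enhancers, with H19 read from the maternal and Igf2 from the paternal chromosome. H19 is a long noncoding RNA and the precursor of miR-675, and Igf2 encodes a fetal growth factor whose intron holds miR-483. Both genes are known for high activity in fetal tissue, for low activity in most adult tissue and for renewed expression in regenerating muscle and in some tumors.

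The hairpins of the mouse are shown because each gives 1 product from its 5′ side (5p arm) and 1 from its 3′ side (3p arm), and reads were counted for each arm. They were read from the GENCODE M21 transcripts of GRCm38, and capitals mark the bases paired in the predicted lowest-energy fold.
Mir675: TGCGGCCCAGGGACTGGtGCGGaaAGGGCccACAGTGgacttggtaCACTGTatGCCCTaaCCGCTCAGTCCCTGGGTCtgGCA
Mir483: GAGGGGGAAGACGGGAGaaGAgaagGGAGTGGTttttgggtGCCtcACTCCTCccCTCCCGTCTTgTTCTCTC
The Mir675 hairpin is 84 bases long, lies at chr7:142577064-142577147 on the minus strand inside H19, and falls in an exon of 3 of the 4 H19 transcripts that span it and in an intron of the other 1. The Mir483 hairpin is 73 bases long, lies at chr7:142654924-142654996 on the minus strand inside Igf2, and is intronic in all 7 spanning Igf2 transcripts. It also lies in an intron of the overlapping gene model Gm49394. A gap of 77776 bases separates the hairpins. Mir675 forms 32 base pairs with a predicted free energy of -56 kcal/mol, and Mir483 forms 27 pairs at -33.8 kcal/mol. G makes up 52.8% of the first 36 bases of Mir483 and 16.2% of the rest, so its arms differ strongly in composition.

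Reads on microRNAs numbered from 2034574 to 13982842 per library. A normalized value is a deposited value, which is a library's reads divided by its size factor. The libraries of *Spalax* and mouse were normalized separately, so levels were set across species only as RPM, the reads of a name scaled to the reads of the library. The 7 muscle markers, all present in the tables, made up 27.7 to 37.3% of the reads of the UIS libraries. They made up 0.00959 to 0.165% in the *Spalax* IS libraries, and 0.0100% (M1019), 2.57% (M1023) and 3.94% (M512) in the mouse IS libraries. The UIS library of mouse M512 also stood apart from the other mouse UIS libraries: miR-196a-5p, a Hox cluster microRNA, was 10.9 higher there on the log2(value + 1) scale. Fewer cells of a type and less RNA per cell cannot be told apart in these bulk samples.

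miR-483-5p was the only arm found in most *Spalax* libraries, and a single granuloma held most of it. The granuloma of Sp600 had 141 reads, or a normalized value of 176.0, while the granuloma of Sp976 had 0 reads, which at its depth allows up to 0.849 RPM. Their UIS libraries had 9 reads (12.8 normalized) and 3 reads (3.81 normalized). The fibrosarcomas had 3 reads (1.63 normalized, Sp2230) and 0 reads (Sp2240), and their UIS libraries had 4 reads (4.81 normalized) and 18 reads (19.4 normalized). One granuloma thus lay far above every other *Spalax* library and the other lay at the bottom, so the granuloma IS values enclosed all UIS values. The Sp600 granuloma alone gave 79.2% of the 178 *Spalax* reads of this arm.

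In the mouse, both arms of miR-483 were detected on both sides, and here too a single tumor stood out. miR-483-5p had 38, 10 and 16 reads in the UIS of M512, M1018 and M1023 (73.0, 13.6 and 21.96 normalized). The tumors had 800 reads in M512 (889 normalized), 4 reads in M1019 (1.45 normalized) and 0 reads in M1023. The tumor of M512 was above all UIS libraries, and the other tumors were below all of them. miR-483-3p followed the same order with 64, 18 and 17 reads in the UIS (123, 24.4 and 23.3 normalized) and 1567, 8 and 3 reads in the tumors of M512, M1019 and M1023 (1741, 2.901 and 2.17 normalized). The M512 tumor held 92.2% of the 868 mouse reads of miR-483-5p and 93.4% of the 1677 mouse reads of miR-483-3p. miR-483-3p was the 131st most abundant of 898 names in that tumor, and the 680th of 938 in the tumor of M1023.

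miR-675 was nearly absent from *Spalax*. miR-675-5p had 0 reads in all 8 *Spalax* libraries, which allows at most 0.230 to 1.47 RPM depending on the library. miR-675-3p had 1 read in the whole species, in the UIS of Sp2230. In the mouse, miR-675-3p, the more abundant arm, had 7, 14 and 9 reads in the UIS of M512, M1018 and M1023 (13.5, 19.004 and 12.4 normalized). It had 149, 6 and 10 reads in the tumors of M512, M1019 and M1023 (166, 2.18 and 7.23 normalized). The order of the tumors against the UIS was that of miR-483, with M512 above all UIS libraries and the others below, by normalized value. In RPM this order held for miR-483 but not for miR-675-3p, where the tumors had 43.1 (M512), 0.627 (M1019) and 1.77 (M1023) and the UIS 0.501 (M512), 1.22 (M1018) and 0.668 (M1023), so that the tumor of M1023 also lay above all UIS libraries. miR-675-5p had 1, 1 and 2 reads in the mouse UIS and 10, 1 and 0 reads in the tumors of M512, M1019 and M1023. The M512 tumor held 76.4% of the 195 mouse reads of miR-675-3p and 66.7% of the 15 reads of miR-675-5p. Over each species' reads, miR-675-3p stood at 3.39 RPM in mouse and 0.0152 in *Spalax*. This comparison rests on counting under mouse names.

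**Figure D1:**
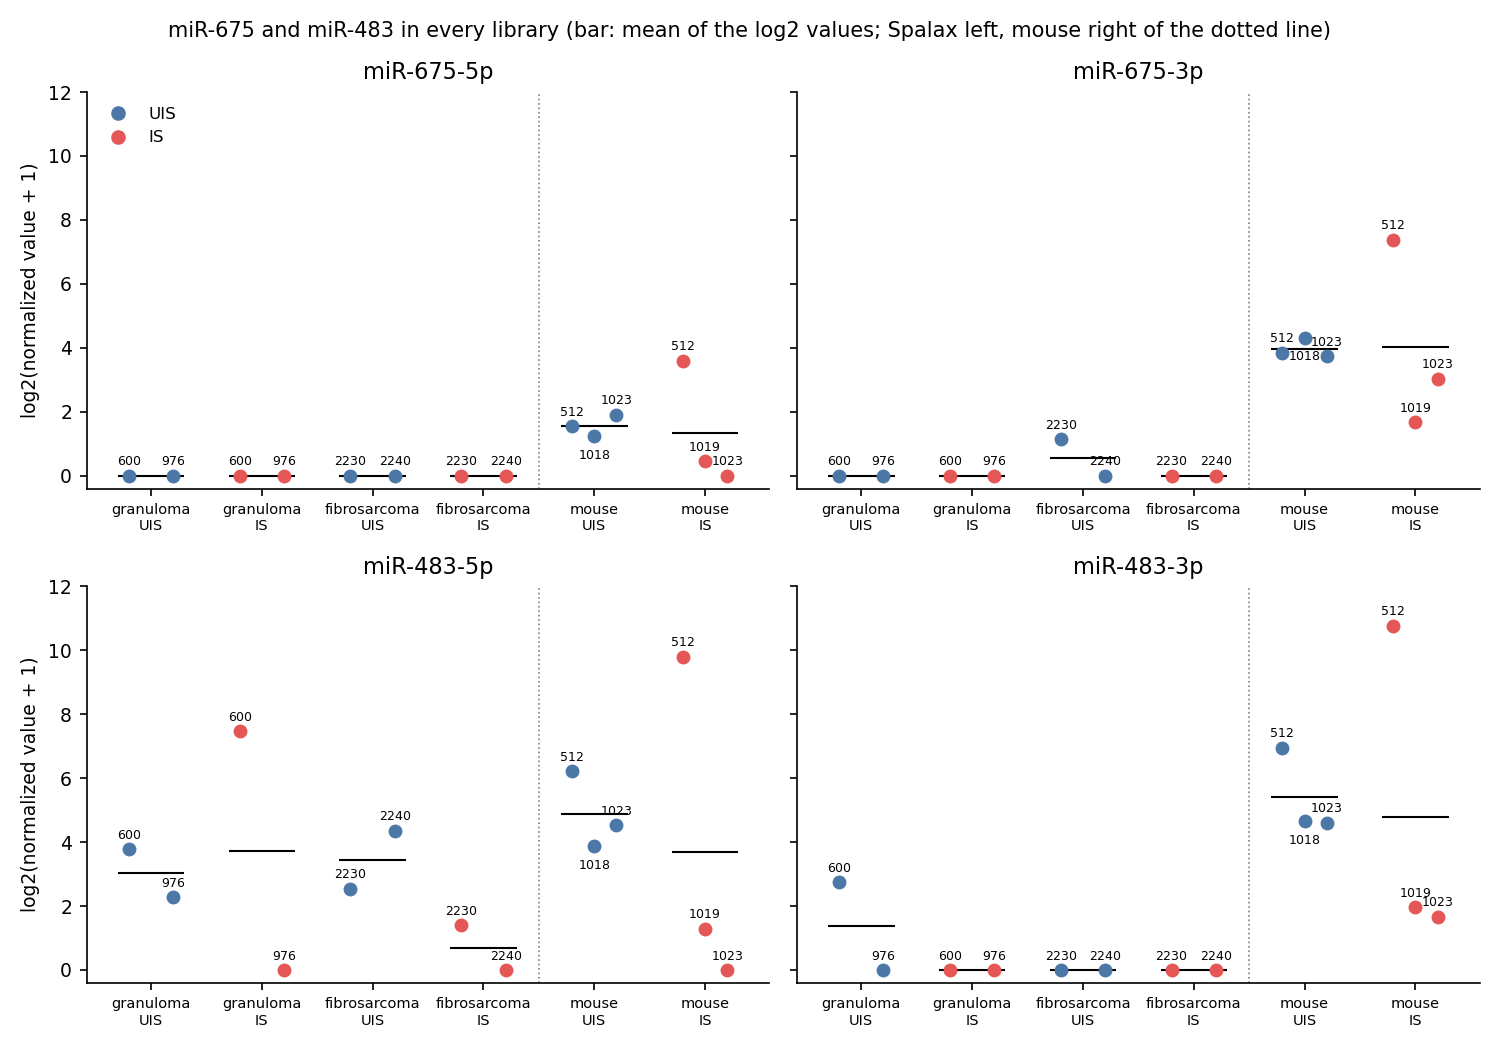
Level of each arm in every library, as log2 of the normalized value plus 1 (vertical axis), by group and side, with UIS in blue, IS in red, the animal number at each point and a bar at the group mean of the log2 values. The IS of mouse M512 is the highest mouse library for all 4 arms, the IS of *Spalax* Sp600 is the highest *Spalax* library for miR-483-5p, and the levels of the species were normalized separately.

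Among the reads counted, the arm used most differed between the hairpins and, for miR-483, between the species. The *Spalax* reads were counted under mouse names and no *Spalax* sequence was used here, so how completely each *Spalax* arm was counted is not known. In the mouse, 34.1% of the 2545 reads of miR-483 came from the 5p arm, and 5 of the 6 libraries lay between 33.3 and 48.5% while the tumor of M1023 had 0 of 3 reads. The tumor of M512 had 33.8% (exact 95% binomial interval 31.9 to 35.7%, 2367 reads) and its UIS 37.3% (27.9 to 47.4%, 102 reads), so the intervals of its sides overlapped. In *Spalax*, 97.8% of 182 reads came from the 5p arm. The Sp600 granuloma had 141 of 141 reads on it (97.4 to 100%), the UIS of Sp2240 had 18 of 18 (81.5 to 100%), and the only 3p reads, 4 of 13, were in the UIS of Sp600, where the 5p share was 69.2% (38.6 to 90.9%). Thus the intervals of the best-covered *Spalax* and mouse libraries did not overlap. miR-675 leaned the other way, with 7.14% of 210 mouse reads on the 5p arm and a highest share of 18.2% (2.28 to 51.8%, 11 reads) in the UIS of M1023. These intervals cover counting error only, and reads that are copies of 1 molecule were not told apart.

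**Figure D2:**
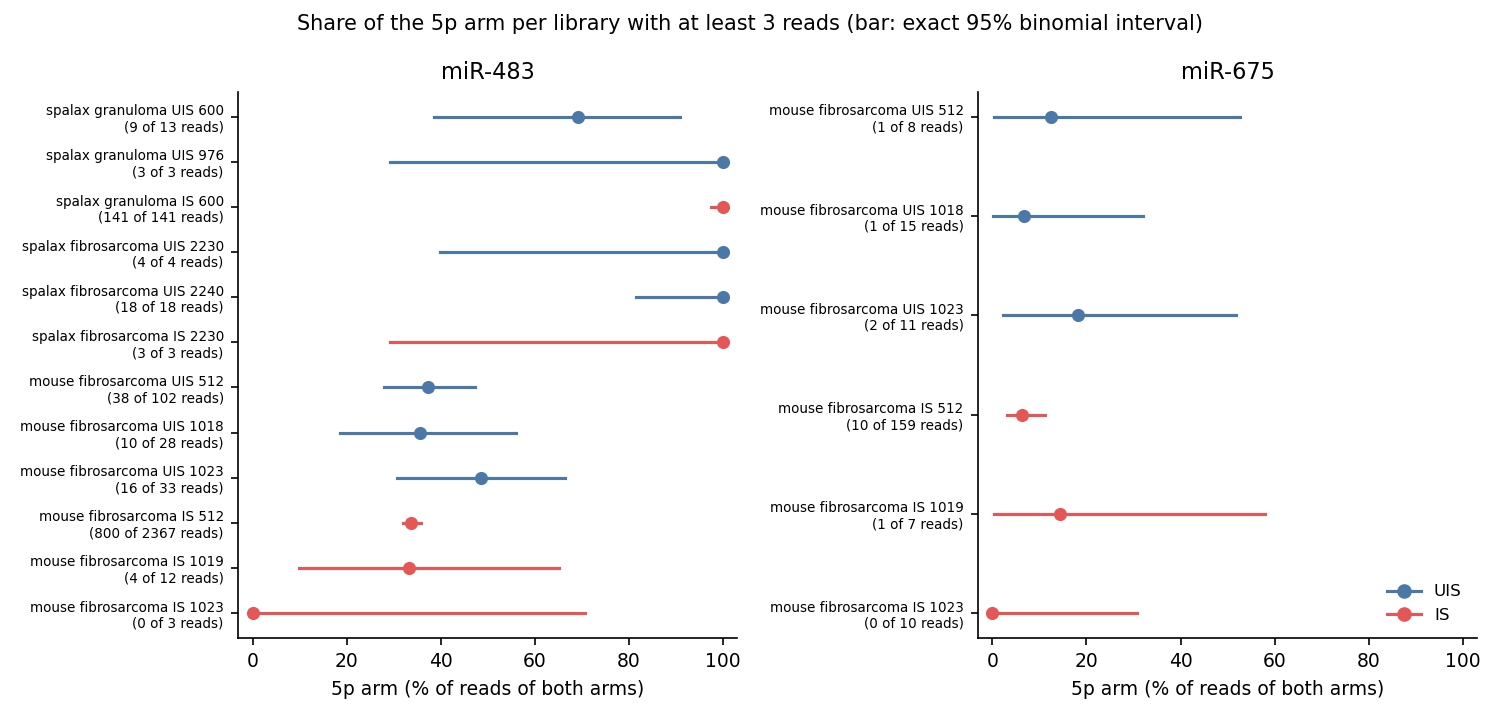
Share of the 5p arm in percent of the reads of both arms (horizontal axis) for each library with at least 3 reads of miR-483 (left) or miR-675 (right), with exact 95% binomial intervals as bars, UIS in blue and IS in red. The *Spalax* libraries lie at 69.2 to 100% for miR-483, the mouse libraries at 0 to 48.5%, and miR-675 at 0 to 18.2%.

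Within animals, the sides moved apart in opposite directions. The Sp600 granuloma was 13.8-fold above its UIS in miR-483-5p, from 9 to 141 reads. Mouse M512 was 12.2-fold above its UIS in miR-483-5p, 14.2-fold in miR-483-3p and 12.3-fold in miR-675-3p. These 3 ratios were of like size, though that of miR-675-3p rests on 7 UIS reads. miR-675-5p was 5.78-fold above its UIS there, from 1 to 10 reads (counting interval 0.823 to 251). In mouse M1023 the tumor was at least 10.1-fold lower than the UIS in miR-483-5p, against a floor of 3 reads in the tumor. Bounds of this kind leave out the counting error of the UIS reads. In the same mouse, miR-483-3p was 10.8-fold higher in the UIS (counting interval 3.11 to 57.3), with 3 reads in the tumor. There miR-675-3p was 1.71-fold higher in the UIS. *Spalax* Sp2240 was at least 2.98-fold lower at the IS in miR-483-5p against the same floor. Scaled to all reads of the libraries instead of by size factors, miR-675-3p of mouse M1023 was 2.65-fold higher in the tumor. With this scale, the bound for Sp2240 dropped below 1, to 0.936. The miR-483 values of M1023 dropped to a bound of 2.24 and a ratio of 2.38 (counting interval 0.688 to 12.7). The M512 and Sp600 ratios grew to between 50.7 and 99.1, except that of miR-675-5p in M512, which grew to 40.5 (counting interval 5.76 to 1756). For Sp976, both sides had 3 reads or fewer, so no ratio was formed. Of the 6 animals with both sides, 2 had more miR-483-5p at the IS and 4 had less by normalized value. Of those 4, M1023 alone was lower under both scalings. Sp976 had too few reads for a ratio, the bound of Sp2240 was below 1 with library totals, and Sp2230, with 3 and 4 reads, turned to 1.11-fold higher at the IS (counting interval 0.162 to 6.53).

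The sides were then compared by limma on log2(normalized value + 1), with p-values adjusted over all microRNAs tested. A name was tested if it reached 10 in 2 or more of the *Spalax* libraries, or in 3 or more mouse libraries. miR-483-5p passed this filter in *Spalax*, and miR-483-5p, miR-483-3p and miR-675-3p passed it in the mouse. No arm passed the threshold of 0.05 in any comparison. In granulomas, the miR-483-5p difference was 0.71 ± 2.14 (SE, n = 2 per side, limma adjusted p = 0.814, 95% interval -4.28 to 5.70), where 48.3% of the 447 tested microRNAs passed. The size of this difference depended on the method: edgeR with TMM factors gave 3.35 and DESeq2 3.34 (adjusted p = 0.155 and 0.105), and library totals gave 1.94 (limma adjusted p = 0.492). In *Spalax* fibrosarcomas it was -2.75 ± 2.14 (limma adjusted p = 0.345), where 37.4% passed. The fibrosarcomas held 3 IS reads against 22 UIS reads, 18 of the latter from Sp2240. The granuloma change less the fibrosarcoma change was 3.46 ± 3.02 (limma adjusted p = 0.593), in a comparison in which 3.80% passed. edgeR with TMM factors gave 6.81 and DESeq2 6.78 for it (adjusted p = 0.203 and 0.0791).

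The IS of granulomas less the IS of *Spalax* fibrosarcomas was 3.04 ± 2.14 for miR-483-5p (limma adjusted p = 0.392), where 18.8% of the tested microRNAs passed. The UIS of both kinds of animal differed by -0.42 ± 2.14 (limma adjusted p = 1), and there 0% passed, with 5 names at an unadjusted limma p under 0.05 and 0 calls by edgeR or DESeq2 as well. The outcome on the IS depended on which granuloma was kept. Without the IS of Sp976, the lone granuloma being assumed to vary like the other libraries, the granuloma difference was 4.44 (limma adjusted p = 0.0196) where 22.8% of names passed as higher. The change difference was then 7.19 (limma adjusted p = 0.0311, 8.72% passing as higher) and the IS difference 6.77 (limma adjusted p = 0.00672, 16.8% passing as higher). Without the IS of Sp600, these values were -3.02, -0.28 and -0.70, with limma adjusted p of 0.101, 0.962 and 0.815. DESeq2 on the recovered reads of all libraries gave 6.21 for the IS difference (DESeq2 adjusted p = 0.0116), with 17.0% of names passing as higher.

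In mouse fibrosarcomas, 57.8% of the 547 tested microRNAs passed, and the standard errors of the 3 tested arms exceeded the differences. The difference was -1.17 ± 2.42 for miR-483-5p (SE, n = 3 per side, limma adjusted p = 0.680), -0.61 ± 2.37 for miR-483-3p (limma adjusted p = 0.837) and 0.06 ± 1.36 for miR-675-3p (limma adjusted p = 0.971). Without the tumor of M512, all 3 tested arms passed as lower in the tumor, by -4.22, -3.60 and -1.62 (limma adjusted p = 0.00785, 0.0121 and 0.0406), where 26.7% of names passed as lower. In the libraries then left, these arms reached a normalized value of 10 only in the UIS. They were thus in that test through the side where they were high. For miR-675-3p the direction also depended on the scale. In RPM, the M1023 tumor (1.77) lay above all UIS libraries, and the M1019 tumor (0.627) lay within their range (0.501 to 1.22). The sign with all libraries was not stable for miR-483. edgeR on whole reads, scaled by TMM factors, gave 3.21 for miR-483-5p and 3.52 for miR-483-3p (edgeR adjusted p = 0.258 and 0.216). With library totals as the scale, which moved the median of all tested names from 0.21 to 2.58, both were also above 0, at 0.61 and 1.55. miR-675-3p moved away from 0 as well, to 2.04 by edgeR with TMM factors and 2.19 with library totals.

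**Figure D3:**
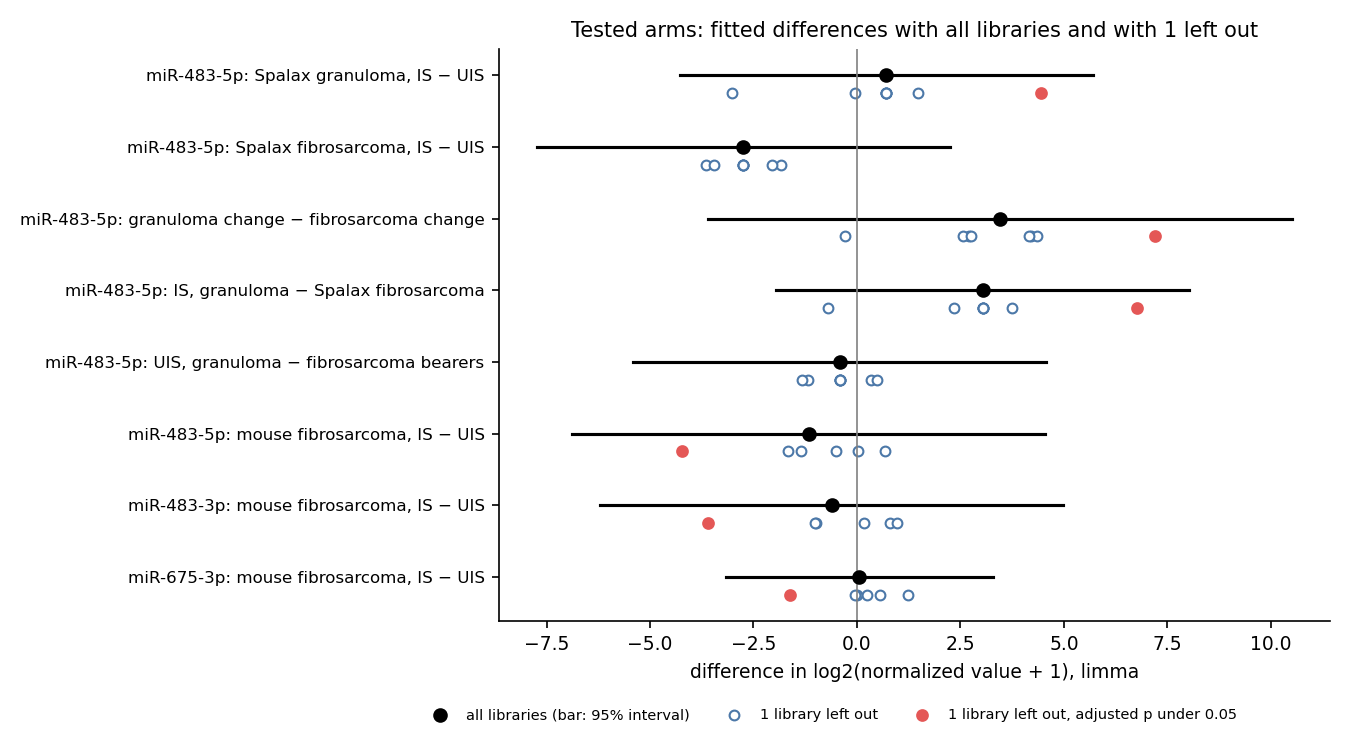
Fitted difference in log2(normalized value + 1) for each tested arm and comparison (black point, bar for the 95% interval of limma), with the values after leaving out 1 library in turn below it (open circles, red where the adjusted p was under 0.05). All black bars cross 0, and the red points are the fits without the IS of Sp976 (4.44, 7.19 and 6.77) and without the IS of mouse M512 (-4.22, -3.60 and -1.62).

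How far the pair of high growths stood from the others of their group was set against all tested microRNAs, a description chosen after the values were seen. The tumor of M512 exceeded the mean of the other mouse tumors by 9.15 on the log2(value + 1) scale in miR-483-5p and by 8.95 in miR-483-3p, ranks 1 and 2 of 547, while miR-675-3p at 5.03 was rank 7. The median of all tested names was -0.02. The Sp600 granuloma exceeded the Sp976 granuloma by 7.47 in miR-483-5p, rank 1 of 447, with a median over all names of 0.15. The Sp976 granuloma and the M1023 tumor had 0 reads of miR-483-5p, so the sizes of 7.47 and 9.15 depend on the added 1. miR-206-3p, which is among the 7 muscle markers, was rank 3 in the M512 tumor and in the Sp600 granuloma, at 6.38 and 6.15. In the M512 tumor, the muscle markers miR-133b-3p and miR-133a-5p were ranks 4 and 6, at 6.28 and 5.42. Rank 5 there was miR-196b-5p, which is not among these markers, at 5.88. The same name was rank 2 in the UIS of M512 against the other mouse UIS libraries, at 9.21. In the Sp600 granuloma, rank 2 was miR-672-5p, at 6.59, and ranks 4 to 6 were miR-490-3p, miR-452-3p and miR-9-5p. None of these names is among the muscle markers. Muscle markers took 3.94% of the reads of the M512 tumor and 0.165% of the Sp600 granuloma, more than in the others of their group (2.57% in M1023, 0.0100% in M1019, 0.00959% in Sp976). Their part in the high values was not tested. In the UIS of M512, miR-483-3p and miR-483-5p exceeded the mean of the other mouse UIS libraries by 2.32 and 2.02, ranks 8 and 12 of 547, while miR-675-3p was at -0.18.

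**Figure D4:**
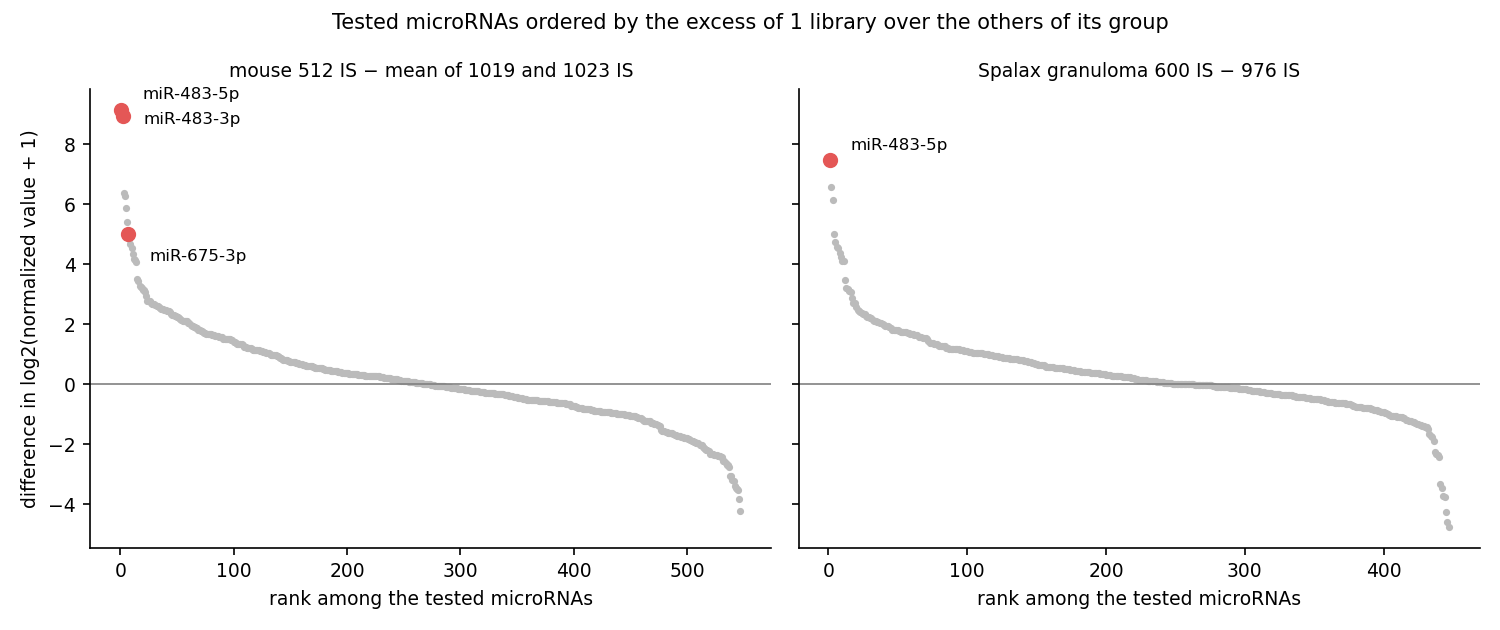
All tested microRNAs in order of the difference in log2(normalized value + 1) (vertical axis) between 1 growth and the others of its group, for mouse tumor M512 (left) and *Spalax* granuloma Sp600 (right), with rank on the horizontal axis and the arms in red. miR-483-5p is at rank 1 in both panels, at 9.15 and 7.47.

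The names most like each arm were ranked by Pearson r of log2(value + 1), as a description over libraries that share animals. In the 6 mouse libraries, miR-483-3p and miR-483-5p had an r of 0.990 with each other (Spearman rho 0.943, and r 0.987 without the 2 libraries farthest from the median). Their r with miR-675-3p was 0.916 and 0.878, and 0.789 and 0.795 without the 2 libraries farthest for the miR-483 arms. Without the 2 farthest for miR-675-3p, these r were 0.685 and 0.712. Outside the locus, miR-215-5p was most like miR-483-5p (r 0.944, rho 1, 0.914 without the 2 farthest), followed by miR-27b-5p (0.898) and miR-1194 (0.877). The same 3 names were most like miR-483-3p, with r of 0.916, 0.889 and 0.919. miR-1194 led for miR-675-3p (r 0.977, rho 1), before miR-132-5p (0.970) and miR-3535 (0.962), which fell to 0.776 and 0.194 without the 2 farthest. Over the 8 *Spalax* libraries, miR-672-5p was most like miR-483-5p (r 0.851, rho 0.802, 0.741 without the granulomas of Sp600 and Sp976). miR-767 (0.801) and miR-490-3p (0.791) came next and fell to 0.508 and 0.560 without those granulomas.

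Other imprinted microRNAs, 30 names of the Dlk1-Dio3, Mest and Gnas regions, were set beside the H19 and Igf2 arms. In mouse fibrosarcomas, 22 of the 25 tested rose and 0 fell, with a median of 3.13 against 0.21 for all tested names, of which 32.2% rose and 25.6% fell. miR-410-3p was higher by 3.12, miR-370-5p by 3.74 and miR-431-3p by 3.14 (limma adjusted p = 0.00212, 0.00246 and 0.00280). In granulomas, 16 of 23 rose and 0 fell (median 2.45, all names 0.13, with 25.5% of all names higher and 22.8% lower), with the smallest p for miR-409-3p at 4.52 (limma adjusted p = 0.00105). In *Spalax* fibrosarcomas, 0 rose and 11 of 23 fell (median -1.70, all names -0.23, with 15.2% of all names higher and 22.1% lower), with the smallest p for miR-296-5p at -3.27 (limma adjusted p = 0.00339). Markers of other cells moved between the sides as well. The 3 fibroblast and mesenchymal markers took 0.390 to 0.522% of the reads of the UIS and 10.7 to 11.1% of the granulomas, 0.621 to 1.00% and 3.02 to 5.31% in *Spalax* fibrosarcoma bearers, and 0.231 to 0.627% and 4.25 to 8.77% in mice. The 5 myeloid and leukocyte markers took 0.0621 to 0.112% of the UIS and 0.341 to 2.39% of the IS libraries over all animals. Their part in the changes of the list was not tested. The counts moved with single libraries. In granulomas, fewer of the list passed without the UIS of Sp600, the UIS of Sp976 or the IS of Sp600. The list medians were then 2.21, 2.78 and 1.90, and without the IS of Sp600 some names passed as lower. In *Spalax* fibrosarcomas, fewer passed without the UIS of Sp2230, the UIS of Sp2240 or the IS of Sp2230. The list medians were then -1.95, -1.68 and -1.03. Fewer also passed there without the UIS of either granuloma bearer. Fewer of all names passed in each of these *Spalax* fits too. In the mouse, 12 rose without the UIS of M512 or of M1023. Of all 547 names, 252 and 213 then passed, 52.8 and 54.5% of them higher, against 316 with all libraries. Scaled to library totals, 1 of 23 fell in *Spalax* fibrosarcomas, where the median of the list was -0.19 against 1.40 for all names. Of all 447 names, 234 passed on that scale, 82.5% of them higher. Within the tumor of M512, 22 of the 25 were below the mean of the other tumors (median -1.40). All tested H19 and Igf2 arms were above it, but this tumor was singled out for its high values of these arms. miR-335-5p of the Mest gene was the highest of the list there, at 4.14. In the Sp600 granuloma, all 23 were above the Sp976 granuloma (median 1.19).

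**Figure D5:**
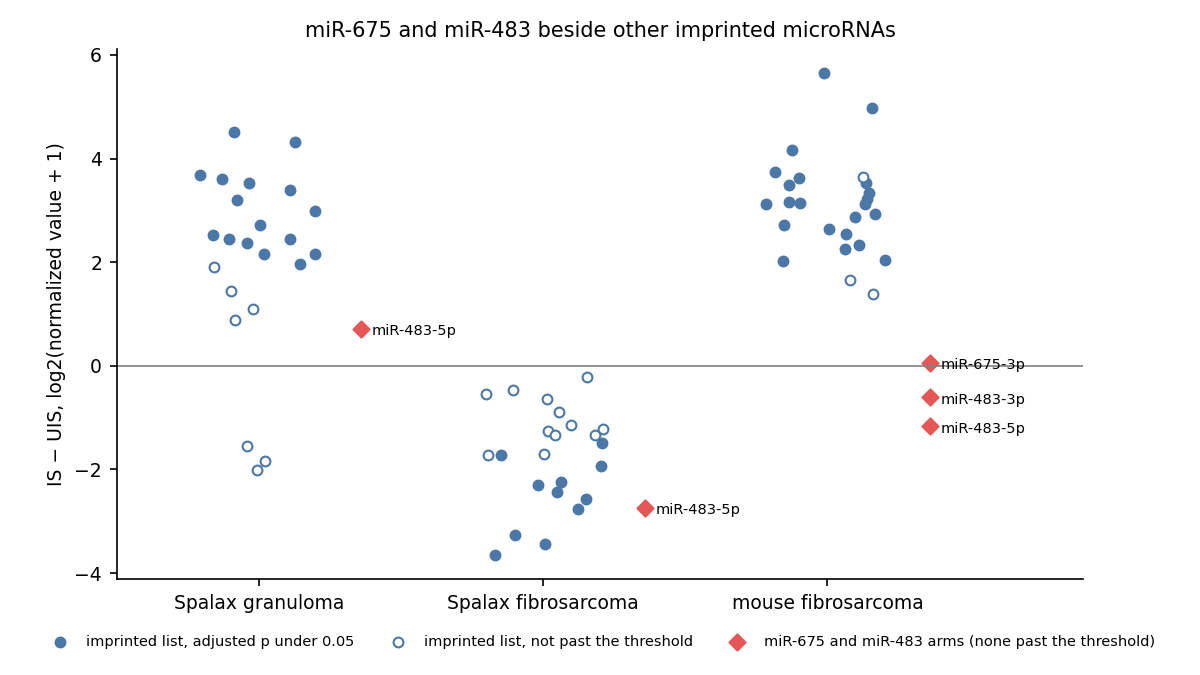
Difference between IS and UIS in log2(normalized value + 1) (vertical axis) of the other imprinted microRNAs (blue, filled where the adjusted p was under 0.05) and of the tested H19 and Igf2 arms (red diamonds) in each growth. The imprinted list has medians of 2.45, -1.70 and 3.13, and the arms lie at 0.71, at -2.75 and between -1.17 and 0.06.

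A second list held 16 microRNAs tied to the insulin-like growth factor axis, such as the let-7 family and the muscle microRNAs miR-1a and miR-133a. In granulomas 3 rose and 7 fell of 16, in *Spalax* fibrosarcomas 2 rose and 7 fell of 16, and in mouse fibrosarcomas 2 rose and 8 fell of 15. The shares of all names given for the imprinted list are the background here too. Single libraries moved these counts. Fewer of the list passed in granulomas without the UIS of Sp976 or the IS of Sp600, with list medians of -1.10 and -1.40. The same held in *Spalax* fibrosarcomas without the UIS of Sp2230 or of Sp2240, with list medians of -1.09 and -1.15. Fewer of all names passed in these fits too. With the animal as a block, a fit that kept only mice M512 and M1023, 0 rose and 5 fell in the mouse. Of all 547 names, 227 passed in that fit, 62.1% of them higher. Scaled to library totals, the counts were 5 higher and 3 lower in granulomas, 6 and 4 in *Spalax* fibrosarcomas, and 7 and 2 in the mouse. Of all names, 303 of 447, 234 of 447 and 404 of 547 then passed, and 83.5, 82.5 and 92.3% of these were higher. The medians of all tested names were 1.90, 1.40 and 2.58. The list medians stayed below these, at 0.84, 0.54 and 1.10. Muscle microRNAs had the smallest p-values in *Spalax*, with miR-1a-3p at -11.86 in granulomas and -13.03 in fibrosarcomas (limma adjusted p = 0.000213 and 0.000151). In the mouse, miR-145a-5p, a smooth muscle microRNA, came first by p at -2.69, followed by let-7g-5p at -1.64 (limma adjusted p = 0.00151 and 0.00375). miR-1a-3p, miR-133a-3p and miR-206-3p of this list are themselves among the 7 muscle markers. They had the 3 smallest p-values of the list in both *Spalax* comparisons, so their falls and those of the muscle markers are the same values. The part of muscle in the other falls was not tested. No name of this list passed for the granuloma change less the fibrosarcoma change, with miR-122-5p at 4.53 (limma adjusted p = 0.0898) the closest. The normalized value of miR-122-5p was 78.2 and 36.6 in the UIS of Sp2230 and Sp2240. It was 4.25 and 6.35 in the UIS of Sp600 and Sp976, and from 0 to 8.74 in the *Spalax* growths. The 16 names of the list had a median of 0.10 against -0.10 for all names.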

How the data were processed

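Small RNA was sequenced from both sides of 4 *Spalax* and 3 mice (14 libraries, 2 per *Spalax* and 3 per mouse group and side). The authors used the TruSeq Small RNA kit, trimmed adaptors, mapped with mirDeep and tested with DESeq2. The submitters' processing notes name GRCm38, TopHat 1.4.1, HTSeq and DESeq without saying for which data. The deposited values are a signal: the reads of a name over the size factor of the library. Of the recovered values, 100% were whole multiples of 1 read (tolerance 0.001). Arms were matched by mouse name. Mature sequences and shared seeds were not analysed here.

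limma 3.58.1 (R 4.3.3, trended spread) was run on log2(value + 1) for names of at least 10 in 2 *Spalax* or 3 mouse libraries, separately by species, with Benjamini-Hochberg adjustment at 0.05 over all names. edgeR 4.0.16 and DESeq2 1.42.0 on recovered reads were alternatives, and scripts were tested on simulated data. Bounds against 0 reads use 3 reads and leave out the counting error of the other side. Hairpins were folded with ViennaRNA 2.7.2. Sides of 1 animal are paired by animal number in the labels (correlation of deviations from the group means -0.11 to 0.12). Libraries of a group and side come from different animals by label. Named microRNAs are the 4 arms, the 3 most alike by Pearson r, and up to 3 of each list by smallest p. The members and lists were chosen with earlier results of these data known.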

Additional observations from a re-analysis of the deposited data

How the results depend on the processing

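No alternative brought an arm past the threshold in *Spalax* fibrosarcomas, between the UIS libraries, or in mice with all libraries, and DESeq2 gave no p for the mouse arms. For the IS difference between granulomas and *Spalax* fibrosarcomas, DESeq2 gave 6.21 for miR-483-5p, past the threshold, and the cause was not tested. Signs turned for miR-483-5p in granulomas at a pseudocount of 0.1 (-0.76) and for miR-675-3p in mice (-0.074). In mice, edgeR with TMM factors, edgeR with DESeq2 factors, DESeq2 and library totals gave 3.21, 3.05, 2.98 and 0.61 for miR-483-5p, 3.52, 3.36, 3.30 and 1.55 for miR-483-3p, and 2.04, 1.92, 1.90 and 2.19 for miR-675-3p. With the animal as a replicate block, miR-483-3p was 0.44 in mice (adjusted p = 0.831), miR-483-5p -0.47 and miR-675-3p 1.41, and miR-483-5p was 0.71, -2.75 and 3.46 in granulomas, in fibrosarcomas and for their difference, so that the block changed no call. Leaving out 1 library at a time, miR-483-5p ranged from -3.02 to 4.44 in granulomas, -3.65 to -1.84 in fibrosarcomas, -0.28 to 7.19 for the difference, -0.70 to 6.77 between the IS and -1.33 to 0.48 between the UIS. In mice it ranged from -4.22 to 0.68, miR-483-3p from -3.60 to 0.96 and miR-675-3p from -1.62 to 1.24. Counts over all names moved by over 1.5 times for the granuloma change less the fibrosarcoma change, from 17 to 61 by DESeq2, 5 with the block and 0 at a pseudocount of 0.1 or without a filter, and between the IS from 84 to 4 with only the libraries compared. Leaving out 1 library, they ranged from 129 to 234 in granulomas, 77 to 176 in fibrosarcomas, 0 to 39 for their difference, 44 to 87 between the IS and 213 to 320 in mice. Library totals moved the share of calls that were higher from 52.8 to 83.5% in granulomas, 40.7 to 82.5% in fibrosarcomas and 55.7 to 92.3% in mice. Without a filter, all fits of the tested arms kept their sign and call. The arm shares of 5 mouse libraries, recomputed from the *Spalax* table, stayed within their intervals in all 10 cases. Few reads limit these arms, since most libraries had under 20.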
